A study of Mus musculus with 7 samples.

Results

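The amino acid and neurotransmitter solute carriers of the mouse retinal pigment epithelium (RPE) were examined in mice with and without LC3b. The genes were taken by their names, as every protein-coding gene whose symbol begins with Slc1a, Slc3a, Slc6a, Slc7a, Slc36a, Slc38a or Slc43a. This gave 64 of the 21536 protein-coding genes and of the 52740 gene identifiers that were measured. By subfamily they comprised 7 Slc1, 2 Slc3, 21 Slc6, 16 Slc7, 4 Slc36, 11 Slc38 and 3 Slc43 genes. Slc7a6os carries a matching name but lies on the opposite strand next to Slc7a6 and is not a carrier. It was kept in all counts.

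RNA of the RPE was sequenced from 4 wild type (WT) and 3 LC3b-/- mice, 1 library per mouse, all 24 months old. The WT libraries came from 3 females and 1 male (F1, F2, F3, M1) and the LC3b-/- libraries from 2 females and 1 male (F1, F3, M). WT mice were C57BL6/J. The LC3b-/- mice were of the strain B6;129P2-Map1Lc3btm1Mrab/J, which lacks Map1lc3b, the gene for the autophagosome protein LC3b, in every tissue. The RPE was released from the eyecup with hyaluronidase and trypsin after the neural retina had been pulled away, and no sorting step is described. Strain background and a 3-digit number in the mouse names, whose meaning is not given, differed with the genotype. The effects of the deletion, of the strain and of what this number stands for cannot be told apart. Within LC3b-/- the male carried another number than the 2 females, so sex and this number cannot be told apart there.

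The RPE is a polarised epithelium between the photoreceptors and the choroid, and it moves nutrients, osmolytes and transmitters between both sides. Most Slc1, Slc6 and Slc38 carriers use the sodium gradient to concentrate substrates in the cell, and Slc36 carriers use protons. Slc7 light chains reach the membrane only when bound to an Slc3 heavy chain and then exchange one amino acid for another, whereas Slc43 carriers let large neutral amino acids pass down their gradient. Leucine and glutamine that enter in this way are sensed by mTORC1, and cells that lack amino acids raise several carriers through the transcription factor ATF4.

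Total counts ranged from 24495952 to 35616134 per library. Map1lc3b measured 104 to 130 CPM (counts divided by the scaled library size) in WT and 6.76 to 8.33 CPM in LC3b-/-, which checks the genotype labels. All 12 RPE markers were detected in all 7 libraries, but their summed level was 31423 to 49471 CPM in WT and 13748 to 29456 CPM in LC3b-/-, and 11 of the 12 had a log2 fold change below 0 (median −0.81). Markers of the ocular surface epithelium, a tissue that should not be in an RPE sample, summed to 12.5 to 2537 CPM in WT and to 3583 to 26272 CPM in LC3b-/- (median log2 fold change of the 12 markers 4.31), highest in the library LC3b-/- F1. Photoreceptor markers summed to 275 to 21342 CPM in WT, highest in WT F2, and to 96.9 to 7327 CPM in LC3b-/-. Endothelial markers summed to 455 to 1432 CPM in WT and to 1614 to 1923 CPM in LC3b-/-. In such bulk samples fewer cells of a type and less RNA per cell cannot be told apart.

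**Figure D1:**
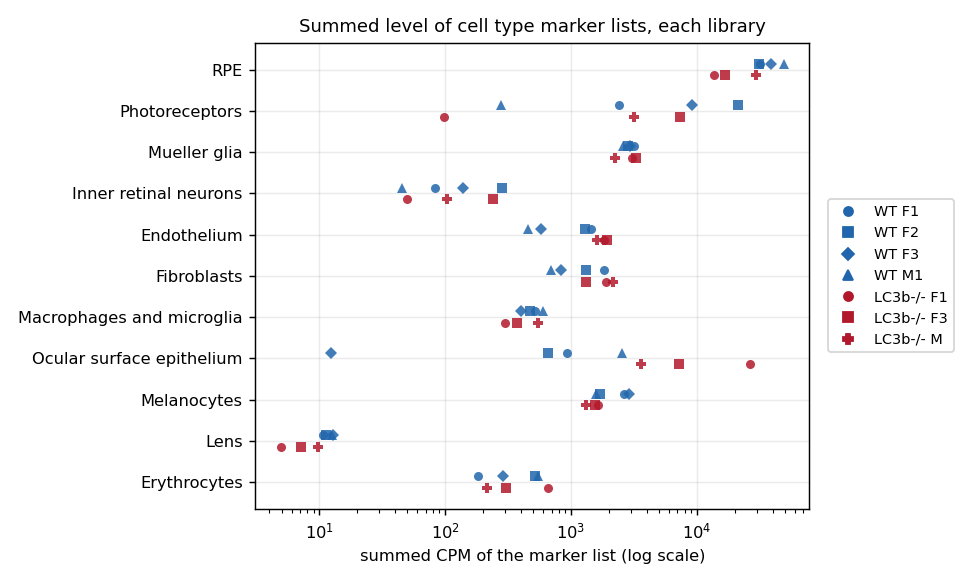
Summed CPM of each marker list (horizontal axis, log scale) for each of the 7 libraries, WT in blue and LC3b-/- in red. The LC3b-/- libraries lie below all WT libraries for the RPE markers and above all of them for the ocular surface and endothelial markers.

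Of the 64 genes, 51 passed the filter on low counts and were tested, and none was differentially expressed between the genotypes in edgeR (fold change of at least 1.5 and adjusted p under 0.05, Benjamini-Hochberg over 16990 genes). Among all genes tested, 0.235% were. The lowest adjusted p among the carriers was 0.0906 in edgeR, for Slc6a14, and 6 carriers had one under 0.1. At an unadjusted p under 0.05, 14 carriers (27.5%) differed, beside 24.1% of all genes. They divided into 7 that were higher in LC3b-/- (13.7%, beside 13.5% of all genes) and 7 that were lower (13.7%, beside 10.6% of all genes). Scaling by library size alone changed this split to 8 higher and 5 lower.

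The median log2 fold change of the 51 genes was 0.02, and that of all genes was 0.01. The 2 groups did not overlap for 13 carriers (25.5%, beside 22.3% of all genes), 6 of them higher (beside 12% of all genes) and 7 lower (beside 10.3%). DESeq2, with the same thresholds, called 9 of 54 carriers (16.7%, beside 9.48% of all genes), of which Slc6a14, Slc6a20b, Slc6a8 and Slc6a4 were higher (beside 6.53% of all genes) and Slc6a13, Slc6a9, Slc7a5, Slc38a1 and Slc43a2 lower (beside 2.95%). Without LC3b-/- M, edgeR called 3 carriers (Slc38a1, Slc6a14 and Slc7a5), and without WT F1 it called 1 (Slc38a2). Of all genes it called 485 and 215 in these fits, beside 40 in the fit with all 7 libraries. Without LC3b-/- M 24 carriers did not overlap, for which the share of all genes was not computed. The two-sided exact permutation test over the 35 ways to divide 7 libraries gave p = 0.0571, the smallest it can give, for 12 of the 14 genes and 0.114 for Slc1a4 and Slc38a2.

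**Figure D2:**
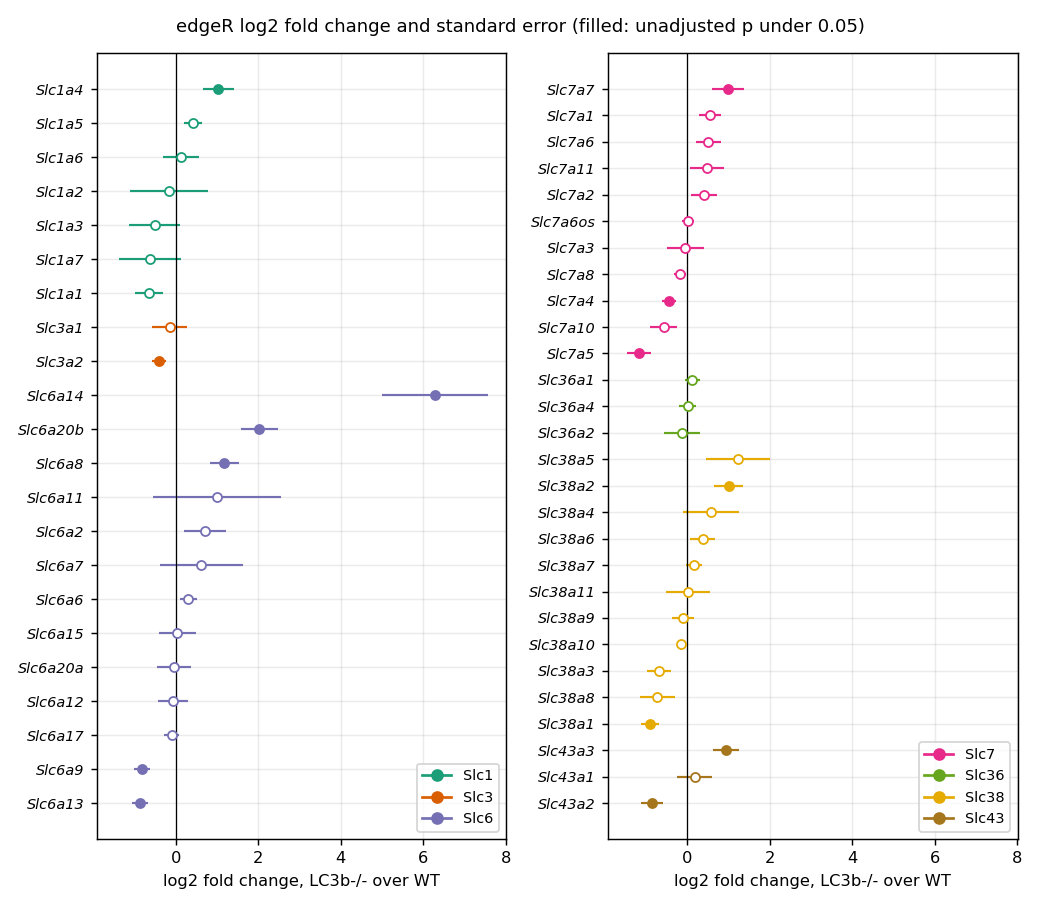
Log2 fold change of LC3b-/- over WT with its standard error from edgeR for 50 of the 51 tested genes, ordered within each subfamily (colours). Filled points mark the 14 genes with an unadjusted p under 0.05, of which Slc6a14 at 6.27 lies far to the right of the rest and Slc7a5 at −1.17 lowest.

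The 13 genes that were not tested had at most 61 counts in any library. Slc6a18, Slc6a21, Slc7a12 and Slc7a13 had no count in any of the 7 libraries. The others were Slc6a3, Slc6a4, Slc6a5, Slc6a16, Slc6a19, Slc7a9, Slc7a14, Slc7a15 and Slc36a3, which include the dopamine, serotonin and neuronal glycine transporters and the renal and intestinal neutral and cystine carriers. Slc6a11 and Slc38a4 reached the count level of the filter in 3 libraries of only 1 group.

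In WT RPE the carriers spanned a wide range of levels per length of transcript. Slc6a13 (GAT2, a carrier of GABA and taurine) was highest at 261 CPM per kb (range of the 4 mice 224 to 304). It was followed by Slc6a6 (the taurine transporter) at 233, the heavy chain Slc3a2 (4F2hc) at 209, the glutamate transporter Slc1a1 (EAAC1) at 202 and the proline carrier Slc6a20a at 199 CPM per kb. The ranges of these 5 overlapped for every pair but Slc6a13 and Slc3a2, which were separated by less than 1 CPM per kb, so their order was not resolved. It also depended on the length used. Divided by the length of all merged exons instead, Slc6a6 was highest at 100.1 CPM per kb, followed by Slc7a5 at 95.3, and Slc6a13 was at rank 5 with 81.1 CPM per kb. Below them came Slc6a9 (GLYT1, a glycine transporter) at 159, the light chain Slc7a5 (LAT1) at 108, the glutamine carrier Slc38a3 (SNAT3) at 92.9 and Slc7a10 (ASC1, a light chain for small neutral amino acids) at 65.9 CPM per kb, each overlapping its neighbour in the order. The next gene, Slc38a1 (SNAT1), at 35.5 CPM per kb (28.6 to 38.8), did not overlap with Slc7a10 (53.5 to 88.2). In the other subfamilies the highest levels were 12.2 CPM per kb for Slc43a2 (LAT4) and 5.15 CPM per kb for Slc36a4. Together the 64 genes took 0.441% to 0.602% of the counts of a library.

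**Figure D3:**
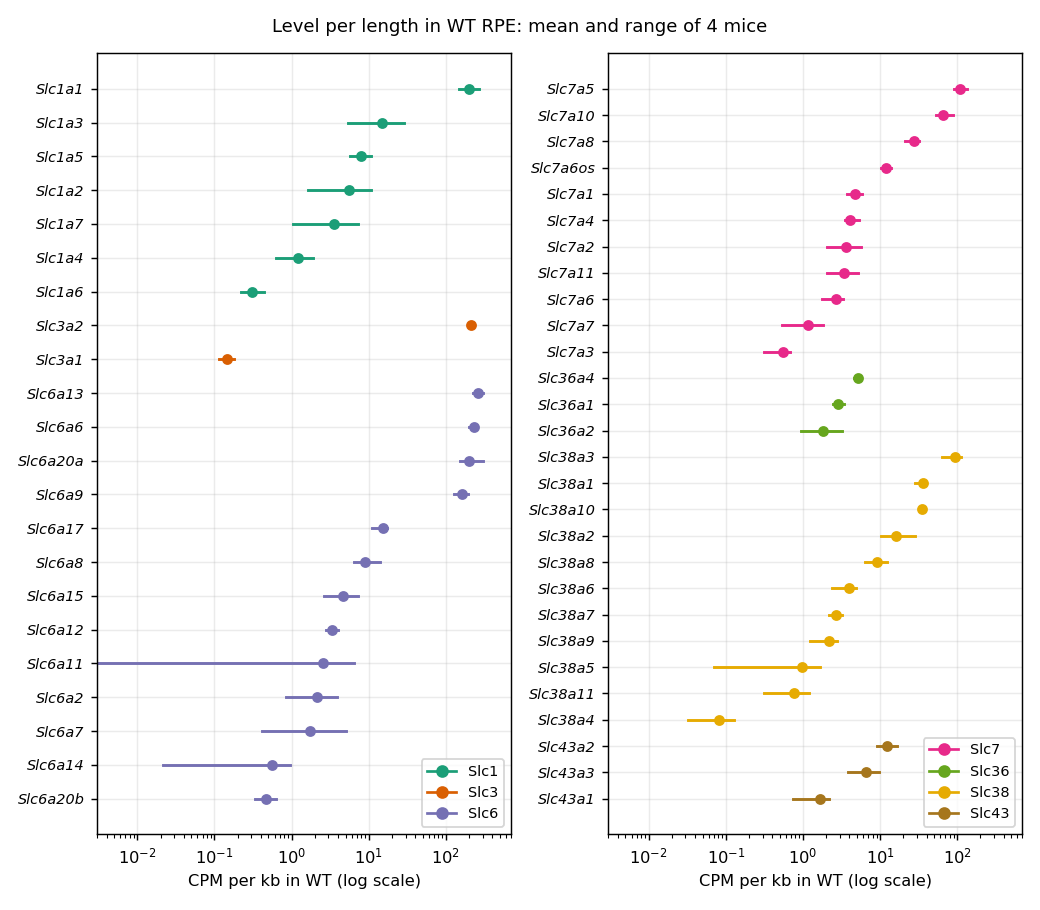
Mean CPM per kb in WT (points, log scale) and the range of the 4 WT mice (lines) for 50 of the 51 tested genes by subfamily. A group of 9 genes from Slc6a13 at 261 to Slc7a10 at 65.9 CPM per kb stands above the rest, and the line of Slc6a11 runs off the axis because 1 WT library had no count.

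Among the heteromeric carriers, the light chain Slc7a5, which brings leucine and other large neutral amino acids into the cell, was lower in LC3b-/-, as was its heavy chain Slc3a2. Slc7a5 (chromosome 8, 122607884 to 122634433 of GRCm39, minus strand) measured 310, 328, 373 and 454 CPM in WT (F1, F2, F3, M1) and 110, 139 and 239 CPM in LC3b-/- (F1, F3, M), the order in which values are given throughout. All 3 LC3b-/- libraries lay below all 4 WT libraries, and both female LC3b-/- mice were lowest. The mean was 366 ± 64.2 CPM (SD, n = 4) in WT and 163 ± 67.7 CPM (SD, n = 3) in LC3b-/-. Its log2 fold change was −1.17 (SE 0.29), with a Benjamini-Hochberg adjusted p of 0.0967 in edgeR, and the unadjusted p was under 0.05 in all 7 fits that left out 1 library each.

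Slc7a5 lies 0.282 Mb from Map1lc3b, the deleted gene. Within 1 Mb of Map1lc3b 26 other genes were tested, of which 4 were higher and 4 lower at p under 0.05 (30.8%, beside 24.1% of all genes). The groups did not overlap for 4 higher and 6 lower ones, beside 12% and 10.3% of all genes. Log2 fold changes of the 26 ranged from −7.23 to 1.28 (median 0.23), and that of Map1lc3b was −3.98. The deletion, strain differences that flank it and a change elsewhere in the cell cannot be told apart for a gene at this distance.

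Slc3a2 (chromosome 19, 8684245 to 8701108, minus strand) measured 396, 381, 430 and 441 CPM in WT and 264, 288 and 378 CPM in LC3b-/-. The groups did not overlap, although LC3b-/- M came within a few CPM of WT F2. Its log2 fold change was −0.41 (SE 0.16, edgeR, Benjamini-Hochberg adjusted p = 0.187), and p was under 0.05 in 2 of the 7 fits without 1 library. Slc3a1 (rBAT), the heavy chain of the renal cystine carrier, measured only 0.615 to 0.953 CPM in WT and 0.483 to 1.03 CPM in LC3b-/-, with overlapping groups.

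The make-up of the light chains that pair with 4F2hc was computed per length within each library. Slc7a5 held 50.4%, 54.4%, 51.1% and 51.8% of the 6 light chains in the WT libraries and 32.9%, 36.4% and 41.3% in the LC3b-/- libraries. This share did not overlap between groups. Per merged exon length it was 75.9% to 79.3% in WT and 58.4% to 69.5% in LC3b-/-, also without overlap. The size of the shares thus depended on the length used. The ratio of Slc7a5 to Slc7a8 (LAT2, which exchanges a broader set of neutral amino acids) was 3.44 to 4.63 in WT and 1.34 to 2.94 in LC3b-/-. Slc7a8 itself was steady, at 77.6 to 117 CPM in WT and 89.0 to 90.3 CPM in LC3b-/- (log2 fold change −0.17, SE 0.15). The sum of the 6 light chains over Slc3a2 was at least 0.904 in WT and 0.739 to 0.893 in LC3b-/-.

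**Figure D4:**
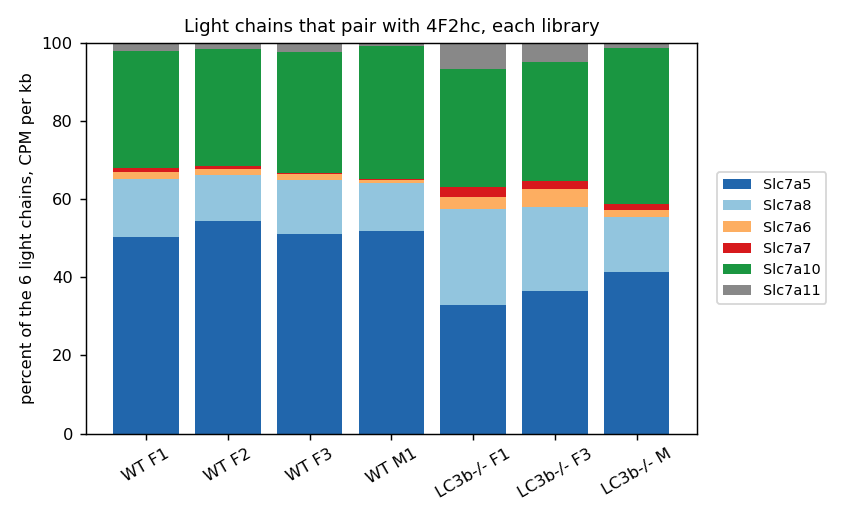
Share of each of the 6 light chains of 4F2hc in their summed CPM per kb (vertical axis, percent), 1 bar per library. The Slc7a5 share is 50.4% to 54.4% in the WT bars and 32.9% to 41.3% in the LC3b-/- bars. The Slc7a10 share of LC3b-/- M, at 40.0%, is the highest of that gene, and it is 16.4% per merged exon length.

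Of the minor light chains, Slc7a7 (y+LAT1, which exports cationic amino acids) was higher in LC3b-/-. It measured 4.24, 3.23, 1.27 and 2.35 CPM in WT and 6.0, 5.04 and 5.58 CPM in LC3b-/-. These groups did not overlap at this low level. edgeR gave a log2 fold change of 0.99 (SE 0.39, Benjamini-Hochberg adjusted p = 0.180), and p was under 0.05 in 2 of the 7 fits without 1 library. Slc7a10 measured 113 to 187 CPM in WT and 63.6 to 145 CPM in LC3b-/- (log2 fold change −0.57, SE 0.32), Slc7a6 (y+LAT2) had a log2 fold change of 0.51 (SE 0.30), and Slc7a11 (xCT, which takes up cystine in exchange for glutamate) one of 0.48 (SE 0.41). All 3 overlapped between the genotypes and had p above 0.05.

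Of the 5 cationic amino acid carriers of Slc7, 4 were tested. Slc7a4, whose transport function is not established, measured 20.1, 18.4, 27.9 and 19.3 CPM in WT and 14.7, 16.4 and 16.2 CPM in LC3b-/-. The groups were separated by a small gap. Its log2 fold change was −0.44 (SE 0.17, edgeR, Benjamini-Hochberg adjusted p = 0.179), and p was under 0.05 in 4 of the 7 fits without 1 library. The arginine and lysine carriers Slc7a1 (CAT1) and Slc7a2 had log2 fold changes of 0.55 (SE 0.27) and 0.41 (SE 0.32) with overlapping groups, and Slc7a3 one of −0.05 (SE 0.44). Slc7a6os measured 14.6 to 19.9 CPM in WT and 15.0 to 18.1 CPM in LC3b-/-.

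The Slc6 carriers of GABA, taurine, betaine and creatine held the most abundant genes of the set, and 2 of the 6 had p under 0.05, in opposite directions. Slc6a13 was the lower one. Its start region is shown because the gene was among the 5 with the highest level per length in WT by either length. It was also the only lower gene with a promoter in the table that held a searched motif of an RPE transcription factor. For Slc7a4, Slc7a5 and Slc38a1, also lower, the table held no promoter. Slc6a13 has 3 promoters there, and these motifs were found only in that shown here. The stretch covers the 189 bases before the annotated gene at chr6:121276997-121277185 of GRCm39 (plus strand; sequence from RefSeq, GRCm38.p6 table, placed on GRCm39 by exact match), and capitals mark TCATGTG, an E-box read by MITF, and GGATTA, read by OTX2.

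Slc6a13 upstream: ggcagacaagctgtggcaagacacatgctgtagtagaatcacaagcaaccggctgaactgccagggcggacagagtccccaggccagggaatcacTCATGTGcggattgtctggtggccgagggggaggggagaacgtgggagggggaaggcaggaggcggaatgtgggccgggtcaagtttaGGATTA

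Motifs were searched on both strands in the 250 bases before the start, for the 67 promoters of 46 of the 64 genes that the table holds. TCATGTG occurred in 5.97% of these and in 3.25% of all 32851 promoters, GGATTA in 2.99% and 6.25%, and TGATGNAAN, the letters of the C/EBP-ATF response element of amino acid deprivation, in 5.97% and 3.44%. The last was found for Slc7a7 in 2 promoters, as TGATGAAAG and TGATGCAAC, and for Slc7a11 and Slc6a21. A match in letters is not evidence of binding.

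Slc6a13 measured 422, 419, 542 and 568 CPM in WT and 237, 240 and 329 CPM in LC3b-/-. No LC3b-/- library reached the lowest WT library. With means of 488 ± 78.4 CPM (SD, n = 4) and 268 ± 52.3 CPM (SD, n = 3), the log2 fold change was −0.86. Its SE was 0.20 and its Benjamini-Hochberg adjusted p in edgeR was 0.0945, and the unadjusted p was under 0.05 in all 7 fits without 1 library. RPE markers, listed above, were lower in the same libraries.

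Slc6a8, the creatine transporter on chromosome X, was higher. It measured 48.3, 26.8, 25.8 and 22.0 CPM in WT and 102, 56.6 and 50.8 CPM in LC3b-/-. The groups came close, since WT F1 lay just under LC3b-/- M, and did not overlap. It had a log2 fold change of 1.18 (SE 0.34, edgeR, Benjamini-Hochberg adjusted p = 0.115), and p was under 0.05 in all 7 fits without 1 library. Without WT F2 and LC3b-/- F1, the libraries with the most photoreceptor and ocular surface RNA, it was 0.75 (SE 0.35).

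Slc6a6 had the highest CPM of the 64 genes. It measured 1289, 1278, 1285 and 1026 CPM in WT and 1817, 1517 and 1175 CPM in LC3b-/-. Both LC3b-/- females were above all WT mice and the LC3b-/- male was not. The log2 fold change was 0.30 (SE 0.20, edgeR, Benjamini-Hochberg adjusted p = 0.394). Slc6a12, the betaine and GABA carrier next to Slc6a13 on chromosome 6, measured 5.21 to 7.42 CPM in WT and 3.19 to 9.38 CPM in LC3b-/-.

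The glial GABA transporter Slc6a11 (GAT3) was highest in the libraries with the highest summed markers of inner retinal neurons. It measured 3.83, 15.0, 4.79 and 0 CPM in WT and 0.282, 29.6 and 5.38 CPM in LC3b-/-. Summed markers of inner retinal neurons in the same order were 83.1, 282, 139 and 45.6 CPM in WT and 50.1, 238 and 104 CPM in LC3b-/-, so that WT F2 and LC3b-/- F3 were highest in both. The part of retinal RNA in these values was not tested.

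Among the Slc6 carriers of glycine, proline and neutral amino acids, Slc6a9 was lower and Slc6a14 and Slc6a20b were higher at p under 0.05. Slc6a9 (chromosome 4, 117691703 to 117732395, plus strand) measured 361, 335, 457 and 503 CPM in WT and 209, 226 and 271 CPM in LC3b-/-. All LC3b-/- libraries lay below all WT libraries. Its log2 fold change came to −0.82 (SE 0.19, edgeR, Benjamini-Hochberg adjusted p = 0.0952), and it was −0.83 (SE 0.21) without WT F2 and LC3b-/- F1.

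Slc6a14 (ATB0,+, a broad carrier of neutral and cationic amino acids of mucosal epithelia, on chromosome X) differed most. It measured 3.31, 1.49, 0.0749 and 2.77 CPM in WT and 276, 164 and 9.45 CPM in LC3b-/- F1, F3 and M. All LC3b-/- libraries were above all WT libraries, and the 2 females far above the male. edgeR gave a log2 fold change of 6.27 (SE 1.28, Benjamini-Hochberg adjusted p = 0.0906). Ocular surface markers in the same order summed to 921, 655, 12.5 and 2537 CPM in WT and to 26272, 7224 and 3583 CPM in LC3b-/-. The WT library with the fewest of them, F3, had the lowest Slc6a14, the LC3b-/- libraries followed the same order for both, and the part of these markers in the result was not tested.

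Slc6a20a and Slc6a20b are tandem copies on chromosome 9 that both carry proline and related imino acids. Slc6a20b (123419865 to 123461630, minus strand) measured 2.55, 2.11, 3.97 and 3.27 CPM in WT and 5.40, 10.4 and 20.3 CPM in LC3b-/-. The groups did not overlap, and the male was highest among the LC3b-/- mice. The log2 fold change was 2.02 (SE 0.45, edgeR, Benjamini-Hochberg adjusted p = 0.0919), with p under 0.05 in all 7 fits without 1 library, and it was 2.23 (SE 0.36) without WT F2 and LC3b-/- F1. Slc6a20a (123463835 to 123508170, minus strand) measured 397, 375, 469 and 743 CPM in WT and 260, 375 and 811 CPM in LC3b-/-. Its groups overlapped (log2 fold change −0.04, SE 0.42), and both males were highest in their group.

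The copies share stretches of identical sequence, which are shown because the reads were 100 bases long. Of 10 coding exons of equal length, one of 163 bases has no difference, and its first 100 bases are given first (chr9:123484131-123484230 in Slc6a20a and chr9:123432855-123432954 in Slc6a20b, GRCm39, minus strand). A read from there fits both genes. The next lines give the first 100 bases of the exon that differs most (44 of 147 bases; chr9:123466111-123466210 and chr9:123424108-123424207), with the 20 bases that differ in capitals.

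Slc6a20a and Slc6a20b, identical exon: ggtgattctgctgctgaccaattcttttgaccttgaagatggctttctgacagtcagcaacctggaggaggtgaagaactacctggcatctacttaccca
Slc6a20a, differing exon: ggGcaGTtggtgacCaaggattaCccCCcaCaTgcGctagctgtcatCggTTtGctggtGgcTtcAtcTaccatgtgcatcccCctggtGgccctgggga
Slc6a20b, differing exon: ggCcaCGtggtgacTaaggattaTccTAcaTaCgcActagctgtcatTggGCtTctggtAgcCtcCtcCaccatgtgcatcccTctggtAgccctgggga

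Of the 6208 stretches of 100 bases in the Slc6a20b transcript, 411 are identical to Slc6a20a, so reads from these are divided between the copies by estimation. Slc6a20a had 6446 to 27469 counts per library and Slc6a20b 51 to 688, so a small share of Slc6a20a reads assigned to Slc6a20b could exceed its own reads. The level of Slc6a20b and its difference between the genotypes are uncertain for this reason. The ratio of Slc6a20a to Slc6a20b per length was 299 to 575 in WT and 91.0 to 122 in LC3b-/-. It was lower in all 3 LC3b-/- libraries than in any WT library, while the sum of both genes was 378 to 746 CPM in WT and 265 to 832 CPM in LC3b-/-. In the same role group, Slc6a15 and Slc6a17, carriers of branched-chain and other neutral amino acids in neurons, had log2 fold changes of 0.04 (SE 0.44) and −0.10 (SE 0.18), and the proline carrier Slc6a7 one of 0.62 (SE 1.00).

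Of the 3 monoamine transporters only Slc6a2, the noradrenaline transporter, was tested. It measured 5.38 to 24.8 CPM in WT and 19.2 to 28.0 CPM in LC3b-/-, with overlapping groups (log2 fold change 0.70, SE 0.51). Slc6a4, the serotonin transporter, had 12, 1, 1 and 9 counts in WT and 54, 10 and 61 counts in LC3b-/-. LC3b-/- F3 lay within the WT values when scaled to depth (0.251 CPM beside 0.351 CPM in WT F1). DESeq2 called it higher (log2 fold change 2.81, adjusted p = 0.0475), and it did not pass the filter in edgeR.

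Among the 7 Slc1 genes 1 had p under 0.05. Slc1a4 (ASCT1, an exchanger of alanine, serine and cysteine) measured 6.67, 4.47, 2.25 and 3.61 CPM in WT and 10.5, 9.08 and 6.62 CPM in LC3b-/-. The groups overlapped by a small amount, at WT F1 and LC3b-/- M. Its log2 fold change was 1.03 (SE 0.37, edgeR, Benjamini-Hochberg adjusted p = 0.157), with p under 0.05 in 4 of the 7 fits without 1 library. Its relative Slc1a5 (ASCT2, a glutamine exchanger) had a log2 fold change of 0.41 (SE 0.22).

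The most abundant glutamate transporter, Slc1a1, measured 605, 563, 871 and 1008 CPM in WT and 334, 388 and 727 CPM in LC3b-/-. The male of each group was highest, and LC3b-/- M lay inside the WT range. On the log2 scale the difference was −0.66 (SE 0.34, edgeR, Benjamini-Hochberg adjusted p = 0.279). Slc1a2, Slc1a3 and Slc1a7, transporters of glia, photoreceptors and bipolar cells, had log2 fold changes of −0.16 to −0.62 with standard errors of 0.62 to 0.94. Slc1a2 was highest in WT F2 (61.1 CPM) and LC3b-/- F3 (61.2 CPM), the libraries that were also highest in the summed markers of inner retinal neurons.

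In the Slc38 subfamily, the neighbours Slc38a1 and Slc38a2 on chromosome 15 (96469298 to 96541851 and 96585266 to 96597894, minus strand) differed in opposite directions. Both take up glutamine and other small neutral amino acids with sodium, and Slc38a2 (SNAT2) is the classic carrier induced by amino acid shortage. Slc38a1 measured 160, 118, 152 and 154 CPM in WT and 56.5, 76.7 and 100 CPM in LC3b-/-, without overlap. Its log2 fold change came to −0.90 (SE 0.21, edgeR, Benjamini-Hochberg adjusted p = 0.0952), with p under 0.05 in all 7 fits without 1 library.

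Slc38a2 measured 123, 71.6, 47.4 and 45.4 CPM in WT and 169, 143 and 123 CPM in LC3b-/-. WT F1 reached the level of LC3b-/- M, and the other WT libraries were lower. Its log2 fold change was 1.01 (SE 0.35, edgeR, Benjamini-Hochberg adjusted p = 0.154), and without WT F1 it was 1.40 with an adjusted p of 0.0485 in edgeR. The ratio of Slc38a1 to Slc38a2 per length was 1.39, 1.77, 3.44 and 3.64 in WT and 0.360, 0.576 and 0.873 in LC3b-/-. These ratios did not overlap between the genotypes. Because the genes of this pair differed in opposite directions, this separation follows largely from their values above and is not a further result. Whether Slc38a1 exceeded Slc38a2 in WT depended on the length used, since the ratio per merged exon length was 0.663, 0.844, 1.65 and 1.74 in WT and 0.172 to 0.417 in LC3b-/-.

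Slc38a3, the most abundant Slc38 gene, measured 196, 318, 347 and 296 CPM in WT and 108, 208 and 226 CPM in LC3b-/-. WT F1 was below 2 of the LC3b-/- libraries. The log2 fold change was −0.68 (SE 0.30, edgeR, Benjamini-Hochberg adjusted p = 0.219). Slc38a5 (SNAT5) was lowest in WT M1 at 0.115 CPM and measured 1.31 to 2.73 CPM in the other WT libraries and 3.43 to 4.63 CPM in LC3b-/-, without overlap (log2 fold change 1.24, SE 0.77, edgeR, Benjamini-Hochberg adjusted p = 0.356). The lysosomal arginine sensor Slc38a9 and the widely expressed Slc38a10 had log2 fold changes of −0.09 (SE 0.27) and −0.14 (SE 0.12). The other members, Slc38a4, Slc38a6, Slc38a7, Slc38a8 and Slc38a11, ranged from −0.72 to 0.58 and overlapped.

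The Slc43 pair with p under 0.05 also went in opposite directions. Slc43a2 (LAT4), a uniporter of large neutral amino acids, measured 46.7, 50.1, 69.2 and 87.2 CPM in WT and 28.3, 32.7 and 44.1 CPM in LC3b-/-. These did not overlap (log2 fold change −0.85, SE 0.26, edgeR, Benjamini-Hochberg adjusted p = 0.125). Slc43a3, a carrier of purine bases and not of amino acids, measured 18.9, 12.1, 7.53 and 13.7 CPM in WT and 23.1, 20.1 and 32.1 CPM in LC3b-/-. Its groups did not overlap either (log2 fold change 0.94, SE 0.31, edgeR, Benjamini-Hochberg adjusted p = 0.139). Slc43a1 (LAT3) measured 1.65 to 4.91 CPM in WT and 3.08 to 5.96 CPM in LC3b-/-.

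The proton-coupled Slc36 carriers were the steadiest subfamily, with log2 fold changes of 0.13 (SE 0.19) for Slc36a1 (PAT1, found on lysosomes), −0.12 (SE 0.44) for Slc36a2 and 0.01 (SE 0.20) for Slc36a4. None had groups that did not overlap. The direction of each was not fixed and changed with other settings or with 1 library left out.

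**Figure D5:**
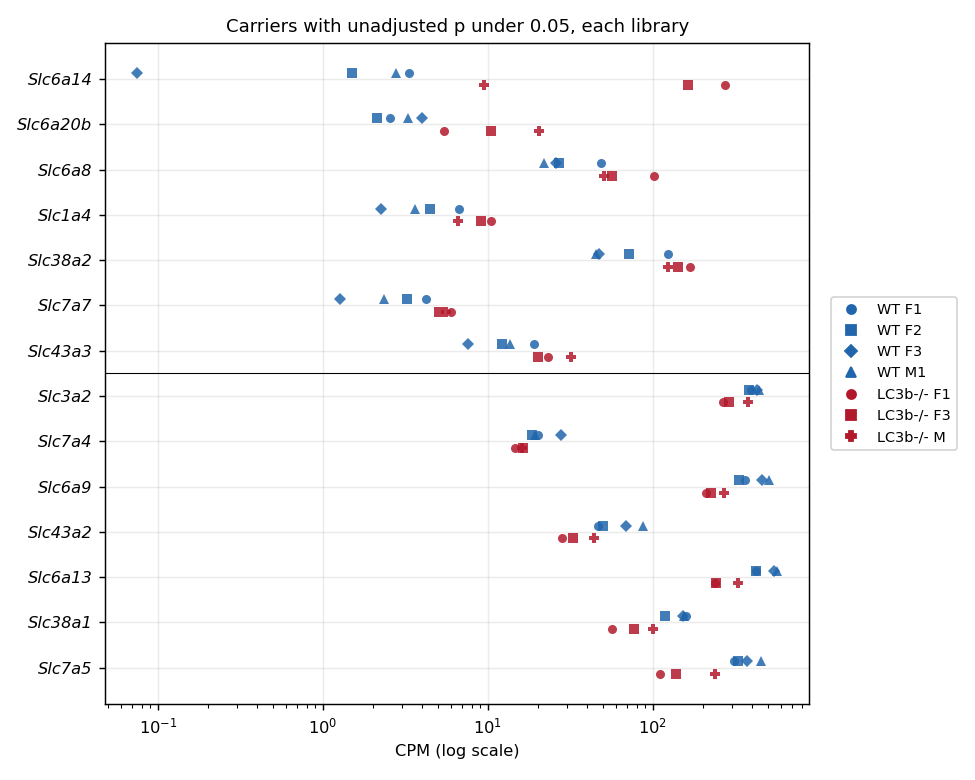
CPM (horizontal axis, log scale) of the 14 genes with an unadjusted p under 0.05 in each library, WT in blue and LC3b-/- in red, with the 7 higher genes above the line and the 7 lower genes under it. The groups are apart for all but Slc1a4 and Slc38a2, and Slc6a14 spans the widest range, from 0.0749 CPM in WT F3 to 276 CPM in LC3b-/- F1.

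Since RPE markers were themselves lower in LC3b-/-, the levels were also expressed per summed CPM of the 12 RPE markers of the same library, a scale chosen after the values were seen. Ttr and Rgr weighed most in this sum, with WT means of 13571 and 11559 CPM beside 1.27 CPM for Best1. Log2 fold changes of the 12 markers ranged from −1.58 for Lrat to 0.19 for Best1. Where the 7 lower genes lie on this scale therefore depends on the markers that weigh most. The scale acts on all genes of a library alike, and the median log2 ratio of the 51 tested genes on it was 1.14. Of these genes 20 lay above all WT libraries, 1 below and 30 overlapped. The share of all genes on this scale was not computed, so these counts do not set the carriers apart. The 7 higher genes were all among the 20. Genes above all WT libraries in CPM had to stay so, because every LC3b-/- library had a lower marker sum than every WT library. Of the 7 lower genes, Slc7a5 lay below all WT libraries (log2 ratio of means −0.25), Slc3a2 above them (0.57) and the other 5 overlapped, with ratios of 0.04 for Slc38a1, 0.14 for Slc6a13, 0.16 for Slc43a2, 0.21 for Slc6a9 and 0.58 for Slc7a4. The fitted fold changes of all 14 genes kept their direction without WT F2 and LC3b-/- F1, and 7 had p under 0.05 there (2 higher and 5 lower; Slc6a14, Slc6a20b, Slc6a9, Slc6a13, Slc7a5, Slc38a1 and Slc43a2).

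Genes that act with the carriers were counted from the same fit, in which edgeR called none. DESeq2 called 2 of the 18 amino acid response genes below, 1 of the 27 genes of mTORC1 sensing and 1 partner of the Slc6 carriers. Of all genes it called 9.48%. Of 27 genes of amino acid sensing by mTORC1, 6 were lower and 0 higher at p under 0.05, beside 10.6% and 13.5% of all genes. The leucine sensor Sesn2 was counted among the amino acid response genes below instead. It was higher at p under 0.05 (log2 fold change 0.51), so the count of 0 depends on this placement. The lower ones were the kinase Mtor (log2 fold change −0.54), the GTPases Rragd (−0.81) and Rraga (−0.47), the GATOR1 subunit Nprl3 (−0.49) and the Ragulator subunits Lamtor4 (−0.33) and Lamtor5 (−0.36). For Rragd the values were 184, 175, 238 and 265 CPM in WT and 107, 114 and 148 CPM in LC3b-/-, without overlap. The sum over the 27 genes was 1361 to 1748 CPM in WT and 1139 to 1371 CPM in LC3b-/-.

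Of 18 amino acid response genes, 3 were higher and 3 lower at p under 0.05, beside 13.5% and 10.6% of all genes. Their median log2 fold change was 0.26. Chac1, which degrades glutathione, measured 0.293 to 0.538 CPM in WT and 0.650 to 4.21 CPM in LC3b-/-, the transcription factor Atf3 80.7 to 316 CPM and 317 to 526 CPM, and Sesn2, a leucine sensor, 10.2 to 15.6 CPM and 15.3 to 20.5 CPM. Lower were the serine synthesis enzymes Phgdh (log2 fold change −0.92) and Psph (−0.58) and the transcription factor Atf5 (−0.58). Other targets of this response in the list, such as Asns and Trib3, had p above 0.05.

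Slc6 amino acid carriers of the kidney and gut need a partner to reach the membrane. The partner Cltrn (collectrin) was abundant and lower in LC3b-/-. It measured 460, 452, 586 and 662 CPM in WT and 211, 250 and 443 CPM in LC3b-/-, without overlap (log2 fold change −0.84, SE 0.29, edgeR, Benjamini-Hochberg adjusted p = 0.151).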

How the data were processed

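Values are the estimated counts per gene that the authors made from 100-base single reads of stranded mRNA libraries, using Salmon against the vM26 GENCODE transcriptome (GRCm39) and tximeta for gene sums. As deposited they are rounded and unscaled. Whether counting used the strand is not given in the sources used here. Symbols, types and coordinates came from GENCODE vM39 (GRCm39) for 51721 of 52740 identifiers, and unmatched ones held 0.032% to 0.0436% of counts.

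Counts were fitted in R 4.3.3 with edgeR 4.0.16 (filterByExpr, TMM, quasi-likelihood, genotype alone), with Benjamini-Hochberg adjustment over 16990 genes. Calls needed a fold change of 1.5 or more with an adjusted p under 0.05. CPM use TMM-scaled library sizes. Levels were compared between genes after division by the mean length of protein-coding transcripts. On simulated counts for LC3b-/- against WT (16990 genes) edgeR recovered 97.5% of 200 changed genes with 2 false calls. The changed genes lay above 10 CPM and were given larger changes than nearly all carriers showed. This share therefore does not measure how many changes as small as those of most carriers would be found. Exact permutation tests were two-sided on log2 CPM (prior count 2, scipy 1.17.1). Libraries of 1 group differed by more than sampling noise, so none was a duplicate.

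Alternatives were DESeq2 1.42.0, limma 3.58.1 voom with quality weights, other scalings and filters, sex as a covariate, females only, the mouse number as a replicate block, and each library left out. Near copies of coding sequences were sought with BLAST 2.17.0 (95% identity over 100 bases), which found Slc6a20a with Slc6a20b and Slc7a12 with a predicted gene. The genes, lists and rules were chosen with earlier results of these data known. Genes described in detail were, per subfamily, those called by edgeR or DESeq2, up to 5 with the lowest p under 0.05, the one with the highest WT level per length, and all tested genes of subfamilies with at most 3. Other values were added after they were seen. A few genes are counted but not reported by name here.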

Additional observations from a re-analysis of the deposited data

Results flagged for a closer look

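Among the genes chosen for detail by the fixed rule, the difference between the genotypes went in opposite ways in the sexes for 2 genes. This was not tested, since there was 1 male of each genotype. The LC3b-/- male also differed from the LC3b-/- females in the 3-digit number of its name. For Slc3a1, the rBAT heavy chain, both female LC3b-/- mice (0.483 and 0.602 CPM) lay below all 3 female WT mice (0.673 to 0.953 CPM), whereas the male LC3b-/- mouse (1.03 CPM) lay above the male WT mouse (0.615 CPM), a log2 ratio of 0.75 in males. These are counts near the filter limit. For Slc36a4, a proton-coupled carrier of proline and tryptophan, both female LC3b-/- mice (25.7 and 30.32 CPM) lay just below the female WT mice (30.33 to 35.6 CPM), and the male LC3b-/- mouse (46.0 CPM) above the male WT mouse (35.9 CPM), a log2 ratio of 0.36. In neither gene did edgeR find a difference between the genotypes over all 7 mice (log2 fold changes of −0.15 and 0.01). Slc6a20a and Slc38a10, which the rule did not choose, showed the same pattern, and Slc7a1 showed the reverse one.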

How the results depend on the processing

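No carrier was called in edgeR under DESeq2's size factors, library size alone, no filter, at least 10 counts in every library, females only or without the libraries WT F2 and LC3b-/- F1, nor in limma voom. DESeq2 called 9 and sex as a covariate 2 (Slc6a13 and Slc7a5), and leaving out 1 library gave 0 to 3 (1 without WT F1, 3 without LC3b-/- M). Of all genes, DESeq2 called 1813. With all genes, edgeR called 197 with sex, 215 without WT F1 and 485 without LC3b-/- M, beside 40 as reported. Carriers higher at p under 0.05 numbered 4 in females only, 2 without WT F2 and LC3b-/- F1, and 4 to 11 with 1 library left out (4 without LC3b-/- F1, 11 without WT F1). Carriers without overlap numbered 26 in females only, 32 in the F1 and F3 mice, and 13 to 24 with 1 library left out (24 without LC3b-/- M), where fewer libraries separate more easily. The matching shares of all genes were not computed. The lower count stayed between 5 and 10. Mouse numbers 1 and 3 are shared by both genotypes, but only 2 pairs exist (correlations 0.146 and 0.243), so they share only a number. With the replicate block 0 genes of all were called, and 5 carriers were higher and 10 lower at p under 0.05.

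The direction turned in carriers near 0, and the cause was not tested. Slc36a4 was −0.0098 with DESeq2's size factors, −0.0049 without a filter, −0.013 in DESeq2, −0.036 in voom, −0.060 with sex, −0.24 in females, −0.30 with the replicate block and −0.27 to 0.18 with 1 library left out. Slc36a1 was −0.0096 with the block and −0.019 to 0.22 with 1 library left out, Slc36a2 0.12 in voom and −0.34 to 0.31, Slc43a1 −0.014 in voom, −0.16 with the block and −0.14 to 0.37, and Slc3a1 −0.53 to 0.057 with 1 left out. In all, 301 of 335 values of named genes kept their direction and side of the threshold. Ordered by merged exon length, 4 of the 5 highest WT genes were shared, and Slc38a1 was above Slc38a2 in 2 of the 4 WT libraries, a comparison added after seeing the data.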

Other observations

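Enzymes that use the substrates of these carriers were counted from the same fit, and edgeR called none. DESeq2 called 1 gene each of branched-chain amino acid breakdown, of glutamate, glutamine and proline metabolism, of taurine, creatine and betaine synthesis and of the carriers of other families, and 2 vesicular carriers. It called 9.48% of all genes. Of 13 genes of branched-chain amino acid breakdown, 12 had a log2 fold change below 0, and 5 were lower and 0 higher at p under 0.05 (median −0.34), beside 10.6% and 13.5% of all genes. Ivd, which oxidises the leucine product isovaleryl-CoA, measured 131, 118, 158 and 148 CPM in WT and 64.1, 62.9 and 83.4 CPM in LC3b-/-, without overlap (log2 fold change −0.98, SE 0.16, edgeR, Benjamini-Hochberg adjusted p = 0.0687). Dbt (−0.45), Mccc1 (−0.46), Auh (−0.41) and Hibadh (−0.38) were the others. Of 15 genes of glutamate, glutamine and proline metabolism, Prodh, the first enzyme of proline breakdown, was lower (137 to 192 CPM in WT, 91.0 to 112 CPM in LC3b-/-; log2 fold change −0.73), as was Pycr3 (−0.42), whereas Glud1 (0.51) and Aldh18a1 (0.46) were higher.

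Of the 9 tested genes of taurine, creatine and betaine synthesis, Cdo1, which starts taurine synthesis from cysteine, measured 28.4, 25.1, 15.7 and 48.3 CPM in WT and 188, 56.8 and 50.4 CPM in LC3b-/-, highest in LC3b-/- F1, the library with the most ocular surface markers. Cdo1 had a log2 fold change of 1.74 (SE 0.54). Chdh (0.57) was also higher and Ado (−0.44) lower at p under 0.05. Of 4 tested vesicular transmitter carriers, Slc18a2, which loads monoamines, measured 2.90, 1.33 and 3.46 CPM in LC3b-/-, each above all WT libraries, and Slc17a8, which loads glutamate, 2.31 to 6.59 CPM in WT and 1.49 to 2.56 CPM in LC3b-/-. Of 10 tested peptide, lysosomal and mitochondrial amino acid carriers of other families, Slc15a3 was higher (log2 fold change 0.98) and Slc25a22 lower (−0.57).

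Marker lists of the RPE, the ocular surface epithelium, photoreceptors and endothelium were described above. The remaining lists had median log2 fold changes of 0.70 for fibroblasts (8 of 8 above 0), −0.03 for Müller glia, 0.62 for inner retinal neurons, −0.15 for macrophages and microglia, −0.47 for melanocytes, −0.57 for lens and 0.10 for erythrocytes.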
